A study of Mus musculus with 3 samples.

Results

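The genes described are 7 surface receptors through which lymphocytes enter, stay in and leave tissues: S1pr1, S1pr4, Selplg, Cd44, Cd69, Gpr183 and Gpr15. They were chosen by name for this function and not by their values, and all 7 were found among the 22457 genes counted. The polyA plus libraries were made from mouse regulatory T cells, the CD4 T cells that restrain other immune cells and are marked by the transcription factor Foxp3. They came from adult mice of 4 months as primary cells, and the labels trace the cells to haematopoietic cells of the bone marrow. No genotype, treatment, sort or number of animals is given in the sources used here. The 3 libraries are technical replicates of 1 biological replicate and form 1 group, so no conditions were compared and every p-value below measures the spread between libraries, not between animals.

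Lymphocytes leave lymphoid organs by following the lipid sphingosine 1-phosphate (S1P), which is plentiful in blood and lymph and scarce inside tissue. They sense it with S1PR1, while CD69, induced by activation, binds S1PR1, takes it from the cell surface and so retains the cell. Entry and positioning use other receptors. PSGL-1, the product of Selplg, carries the sugars that selectins on vessel walls bind. CD44 binds the matrix polymer hyaluronan, GPR183 (EBI2) follows oxysterols within lymphoid organs, and GPR15 guides regulatory T cells to the large intestine in mice.

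Regulatory T cell transcripts were present throughout. All 5 regulatory T cell markers and all 7 general T cell markers reached 1 CPM (the count scaled to 1000000 per library) in every library, and Foxp3 stood at 142, 157 and 150.4 CPM in libraries 1, 2 and 3. Totals ranged from 2872350 to 3228215 counts. The summed level of the 5 regulatory T cell markers was 1607, 1607 and 1703 CPM in libraries 1, 2 and 3. Sums over the marker lists of other cells were lower, and several were uneven between libraries. The summed level of the 8 B cell markers was 272, 349 and 474 CPM in libraries 1, 2 and 3, with all 8 detected. That of the 7 erythroid markers was 8.11, 196 and 173 CPM, with 4 globin genes at 0 in library 1, and that of the 7 neutrophil markers was 1.56, 78.4 and 9.4 CPM. Sums of the CD8 T, monocyte or macrophage, natural killer and dendritic cell lists ranged from 9.04 to 69.6 CPM. The plasma cell list ranged from 37.1 to 137 CPM and the stroma and endothelium list from 1.25 to 1.86 CPM, with Kdr and Pdgfrb at 0 in all libraries.

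The gene models lie on 7 chromosomes, all on the minus strand (GENCODE M21 on GRCm38, the assembly of the files). S1pr1 (ENSMUSG00000045092.8) lies at chr3:115710433-115715072, S1pr4 (ENSMUSG00000044199.6) at chr10:81497747-81500132 and Selplg (ENSMUSG00000048163.13) at chr5:113818536-113832644. Cd44 (ENSMUSG00000005087.17) lies at chr2:102811141-102901665 and Cd69 (ENSMUSG00000030156.5) at chr6:129267325-129275436. Gpr183 (ENSMUSG00000051212.8) lies at chr14:121952551-121965195 and Gpr15 (ENSMUSG00000047293.7) at chr16:58717433-58719070. The 4 G protein-coupled receptors S1pr1, S1pr4, Gpr183 and Gpr15 have their coding sequence in a single exon of 1146, 1158, 1071 and 1080 bases. Cd44, by contrast, has 19 coding exon blocks and 8 annotated coding transcripts.

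RefSeq start regions (250 bases before the start to 50 after, GRCm38) were at hand for 4 of the 7 genes, S1pr4, Cd44, Gpr183 and Gpr15. The windows of S1pr4 (chr10:81500088-81500387) and Gpr183 (chr14:121965144-121965443) are shown whole because their starts lie within 5 and 2 bases of the GENCODE start. For Gpr15, the member that differed most between libraries, 30 bases (chr16:58718937-58718966) are shown around a pair of adjacent matches. All are on the minus strand, 5′ to 3′, and capitals mark matches to the motifs named below.
S1pr4: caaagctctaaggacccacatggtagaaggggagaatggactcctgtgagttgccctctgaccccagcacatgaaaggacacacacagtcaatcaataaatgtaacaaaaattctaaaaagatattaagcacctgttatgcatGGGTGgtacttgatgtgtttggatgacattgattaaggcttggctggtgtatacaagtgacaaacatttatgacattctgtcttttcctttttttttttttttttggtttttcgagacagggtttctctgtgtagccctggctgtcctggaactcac
Gpr183: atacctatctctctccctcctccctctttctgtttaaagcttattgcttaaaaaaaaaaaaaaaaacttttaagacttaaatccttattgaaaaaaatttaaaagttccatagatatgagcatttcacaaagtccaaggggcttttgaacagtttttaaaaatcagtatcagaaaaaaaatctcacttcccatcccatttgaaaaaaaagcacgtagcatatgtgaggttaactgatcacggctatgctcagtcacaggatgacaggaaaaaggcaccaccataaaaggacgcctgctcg
Gpr15: agaaagaaaACCACAACCACAgccaatacc

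Short motif letters were searched on both strands of each window. The RUNX core, spelled ACCACA, occurs in 16.8% of the 32851 RefSeq windows of this length, and the KLF core, CACCC, in 57.5% of them. The AHR core was searched as GCGTG, which 32.4% of windows hold. The forkhead core was searched as GTAAACA, which is present in 3.65% of windows. The STAT core was searched as TTCNNNGAA, which is present in 8.3% of windows, and the TATA box as TATAAA, in 13.6% of windows. The Gpr15 window held 2 abutting RUNX cores, starting 85 and 79 bases before the RefSeq start, and 2 KLF cores outside the stretch shown. The S1pr4 window held 1 KLF core, written on the other strand. No match overlapped another. The Gpr183 and Cd44 windows held none of the 6 motifs, and the AHR, forkhead, STAT and TATA letters were in none of the 4 windows. The GC content was 41%, 58%, 35.3% and 33.7% in the S1pr4, Cd44, Gpr183 and Gpr15 windows, against a median of 52.7% over all windows. The RefSeq start of Gpr15 lies 198 bases inside the GENCODE gene model, so its matches fall within the transcript that GENCODE annotates. These are matches of letters only, and binding was not measured.

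All 7 receptors were expressed well above detection. Each reached 1 CPM in every library, as did 48.4% of all genes counted, and their levels ran from 100.0 to 548 CPM. The median over the 7 was 195 CPM, beside 44.2 CPM over the 10866 genes at 1 CPM or more in every library. Together they took 0.173%, 0.179% and 0.179% of the counts in libraries 1, 2 and 3. In RNA from a whole population, fewer cells with a transcript and less of it per cell cannot be told apart. How much of each level came from B cells and other cells, whose markers were also detected, was not measured.

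**Figure D1:**
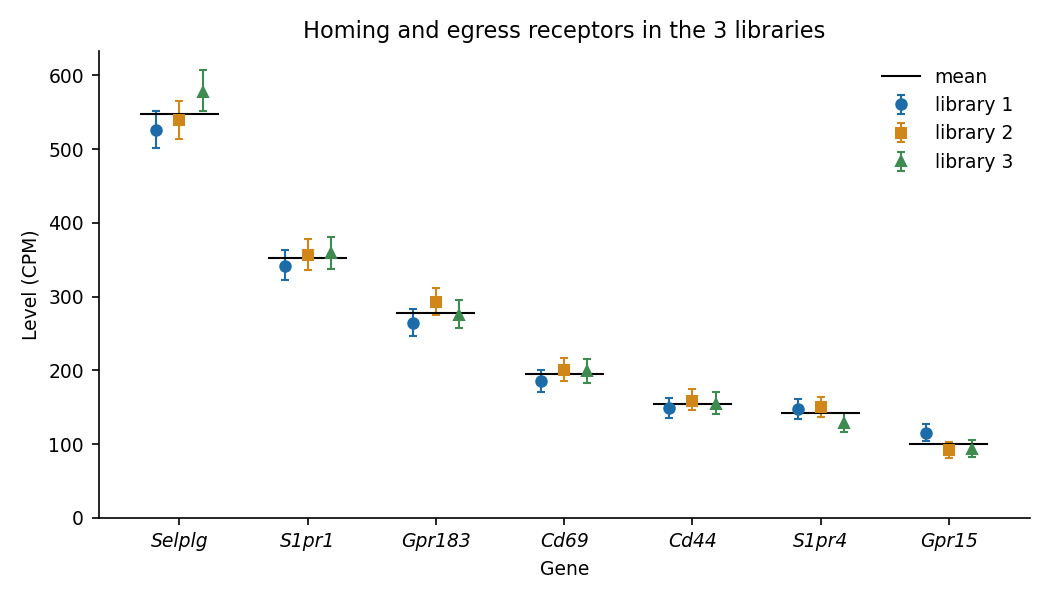
Level of each receptor gene in CPM (vertical axis from 0) in libraries 1, 2 and 3, with exact binomial 95% intervals that cover counting error only and the mean as a bar. Selplg stands highest at 548 CPM and Gpr15 lowest at 100.0 CPM, and the libraries of a gene lie close together.

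S1pr1 was the main S1P receptor transcript. It had 342, 357 and 359 CPM in libraries 1, 2 and 3 (1096, 1151 and 1030 counts), a mean of 352 ± 9.17 CPM (SD, n = 3). Its 3 values differed by less than the counting intervals, which in library 1 ran from 322 to 363 CPM (exact binomial, 95%). S1pr4, a related S1P receptor of blood cells, had 147, 150.2 and 128 CPM in the libraries (471, 485 and 369 counts). Library 3 was the low one for S1pr4, and the mean was 142 ± 11.7 CPM (SD, n = 3).

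The other S1P receptors were far lower. S1pr2, which restrains migration and confines B cells to germinal centres, stood at 9.95 ± 3.02 CPM (SD, n = 3). S1pr3 had 4, 4 and 1 counts. S1pr5, the egress receptor of natural killer cells, had 1, 1 and 0 counts, all under the floor of 3 counts per library (0.929 to 1.04 CPM). Per kb of coding sequence, S1pr1 made up 69.8 ± 2.15% of the summed S1P receptor level and S1pr4 27.8 ± 1.91% (SD, n = 3). S1pr2 made up 2.13 ± 0.584% of it. These shares depend on the length divided by. Per kb of the transcript with the longest coding sequence, S1pr1 had 116 ± 3.01 and S1pr4 59.5 ± 4.91 CPM per kb. On that scale S1pr2 had 1.56 ± 0.472 CPM per kb (SD, n = 3 for each gene).

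Cd69, a C-type lectin of early activation and tissue retention, was present beside S1pr1. It had 185, 201 and 199 CPM in libraries 1, 2 and 3 (592, 648 and 572 counts) and averaged 195 ± 8.88 CPM (SD, n = 3). Within a library the log2 ratio of Cd69 to S1pr1 per kb of coding sequence was 0.05, 0.11 and 0.09 in libraries 1, 2 and 3. The transcripts were thus near parity on that scale, and the ratio reversed with other lengths. Without length correction it was -0.86 ± 0.03, and per kb of all annotated exons, which for Cd69 include retained introns, -1.95 ± 0.03 (SD, n = 3). Whether both transcripts were in the same cells was not measured.

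Of the adhesion receptors, Selplg was the most abundant member. It had 526, 539 and 578 CPM in libraries 1, 2 and 3 (1686, 1740 and 1661 counts), a mean of 548 ± 27.3 CPM (SD, n = 3). Its unscaled count was nearly the same in every library although library 3 was the shallowest. Cd44, the hyaluronan receptor, had 149, 159 and 155 CPM in the libraries (479, 514 and 445 counts). Its mean of 155 ± 4.94 CPM (SD, n = 3) had a coefficient of variation of 3.2%.

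Counts per gene do not show which form of CD44 was made. Its coding sequences run from 1095 bases (Cd44-203) to 2340 bases (Cd44-201), depending on the exons included. The level was 66 ± 2.11 CPM per kb with the longest and 141 ± 4.51 CPM per kb with the shortest (SD, n = 3). With the shortest, Cd44 moved to rank 5 among the 7, above S1pr4.

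The chemoattractant receptors differed from each other. Gpr183, the oxysterol receptor, had 264, 293 and 275 CPM in libraries 1, 2 and 3 (847, 946 and 791 counts) and averaged 278 ± 14.6 CPM (SD, n = 3). Gpr15 had 115, 91.7 and 93.3 CPM in the libraries (369, 296 and 268 counts). Library 1 was the high one for Gpr15, the mean was 100.0 ± 13.1 CPM (SD, n = 3), and its coefficient of variation of 13.1% was the highest of the 7. Per kb of coding sequence the log2 ratio of Gpr15 to Gpr183 was -1.21, -1.69 and -1.57 in libraries 1, 2 and 3, a mean of -1.49 ± 0.25. It shrank to -0.66 ± 0.25 per kb of exons (SD, n = 3 each).

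In order of level per kb of coding sequence, Selplg led at 438 ± 21.8 CPM per kb. It was followed by Cd69 at 326 ± 14.9, S1pr1 at 307 ± 8.01 and Gpr183 at 259 ± 13.6 CPM per kb. S1pr4 came next at 123 ± 10.1, then Gpr15 at 92.6 ± 12.1 and Cd44 at 66 ± 2.11 CPM per kb (SD, n = 3 for each gene). The ranges over the 3 libraries overlapped for 1 of the 6 pairs of neighbours in this order, Cd69 and S1pr1. Set against 10784 genes with a known coding length and 1 CPM or more in every library (median 31.6 CPM per kb), Selplg stood at percentile 98.1. Cd69, S1pr1 and Gpr183 stood at percentiles 96.2, 95.7 and 94, S1pr4 and Gpr15 at 82.8 and 76.9, and Cd44 at 68.9.

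The order depended on the length used, and only Selplg kept its rank in every length setting tried. It was highest with coding length, with all exons, with the transcript of the longest coding sequence and without any length. Cd69 was at rank 2 by coding length (597 bases), at rank 3 by its transcript (1687 bases) and at rank 6 by all its annotated exons (6509 bases). Without length it was at rank 4. Gpr15 was at rank 4 by all exons and at rank 5 by the transcript, above S1pr4 in both (61.1 ± 7.97 against 59.5 ± 4.91 CPM per kb, SD, n = 3), and at rank 7 without length. Cd44 was at rank 7 by exons and by transcript but at rank 5 without length, above S1pr4 and Gpr15. S1pr1 was at rank 2 in all settings but coding length, and Gpr183 was at rank 3 or 4.

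**Figure D2:**
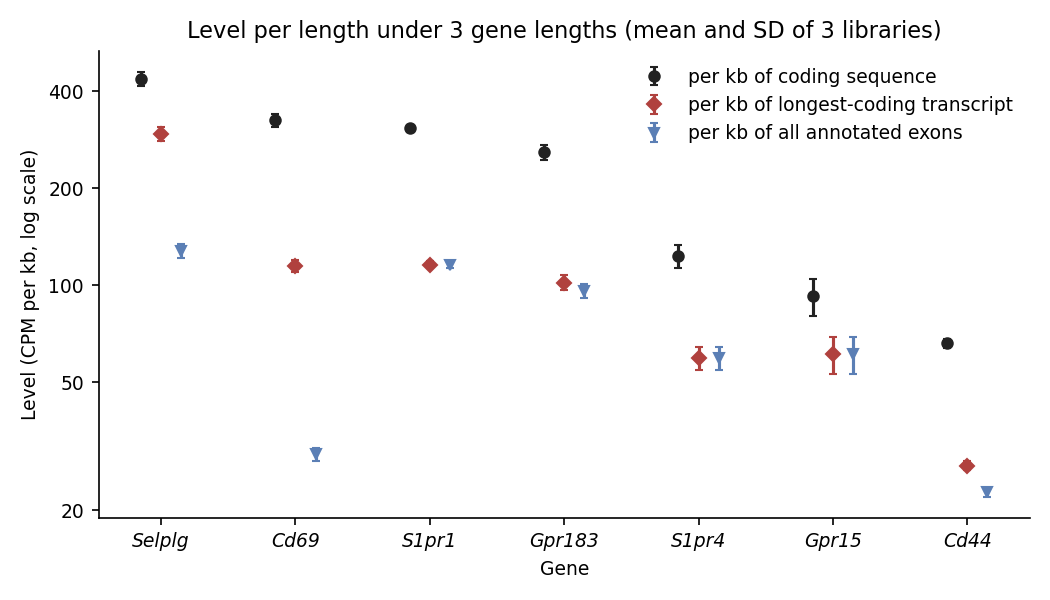
Level of each receptor gene as CPM per kb on a log axis (mean and SD of 3 libraries), with the length taken as coding sequence (circles), the transcript with the longest coding sequence (diamonds) or all annotated exons (triangles). Cd69 falls from 326 to 29.9 CPM per kb between the first and the last, while Selplg stays at the top.

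For 5 of the 7 receptors no difference between libraries passed the test. The counts of each gene were tested by a chi-square test against Poisson expectation, with edgeR TMM library sizes and Benjamini-Hochberg adjustment over 10282 genes, and 2 of the 7 members passed an adjusted p of 0.05, as they did an unadjusted p of 0.05. This share lies near the background, since 27.6% of all genes tested passed (38.6% unadjusted), and 43.0% of the 2831 genes with a mean count in the range of the members (311 to 1696). Between its highest and its lowest library the median member differed 1.08-fold, and the median of those 2831 genes 1.16-fold.

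Gpr15 passed, with an adjusted p of 0.0114 in that chi-square test on edgeR TMM sizes. Library 1 was 1.29-fold above library 2 (95% interval 1.1 to 1.51, exact binomial). Here and below, the highest and the lowest library were picked from the same counts, which the interval does not allow for. Without library 1 the adjusted p was 0.805, without library 2 it was 0.071, and without library 3 it was 0.0127 (same test). Selplg passed with a smaller difference, at an adjusted p of 0.0336 (same test). Library 3 was 1.1-fold above library 2 (95% interval 1.03 to 1.17, exact binomial). Without library 3 its adjusted p was 0.929, without library 2 it was 0.0703, and without library 1 it was 0.043. With plain totals as library sizes it was 0.0572. S1pr4 missed the threshold at an adjusted p of 0.191 (same test). Its lowest library was library 3, where 7.91% of all genes passed as lowest, and library 1 was 1.15-fold above it (95% interval 0.999 to 1.32, exact binomial). Both members that passed were lowest in library 2 after scaling. Of all genes tested 12.7% passed with library 2 lowest, against 6.95% with library 1 lowest. For Selplg, libraries 1 and 2 were nearly equal after scaling (log2 ratio to the mean -0.045 and -0.047). Its CPM was lowest in library 1, at 526 against 539 in library 2. The other 4 members had ratios of 1.04 to 1.08 and adjusted p of 0.405 to 0.874 (same test).

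With extra spread allowed between libraries (negative binomial, edgeR common dispersion, a coefficient of variation of 12.5% estimated from the same libraries), 0 of the 7 members and 93 genes in all passed (0.904%). No member had an unadjusted p under 0.05 in that model, against 6.70% of all genes, and the smallest unadjusted p was 0.353. The B cell marker sum was also highest in library 3, as Selplg was, and the erythroid and neutrophil sums were lowest in library 1, where Gpr15 was highest. Their part in these differences was not tested.

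**Figure D3:**
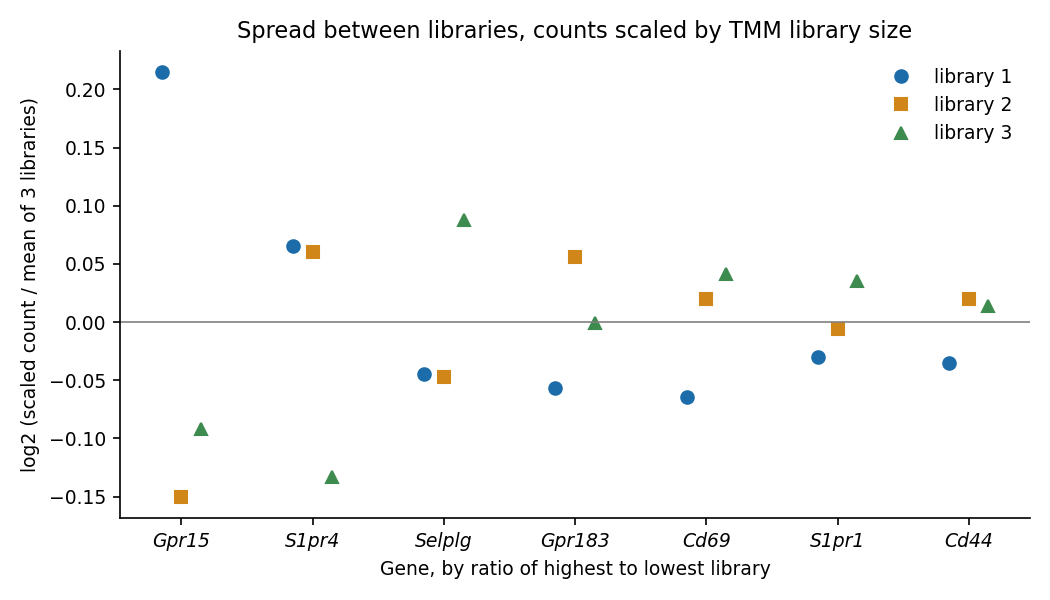
Scaled count of each receptor gene in libraries 1, 2 and 3 as a log2 ratio to the mean of the 3 (TMM library sizes), ordered by the fold between highest and lowest. Gpr15 is high in library 1, S1pr4 low in library 3 and Selplg high in library 3, and Cd44 varies least.

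The members also differed in their count per coding base. Selplg had 1.36 counts per coding base, Cd69 1.01, S1pr1 0.953 and Gpr183 0.804, while S1pr4 had 0.381, Gpr15 0.288 and Cd44 0.205. Across genes, the median log2 ratio of unscaled counts of library 3 to library 1 was -0.19 at 0.1 to 0.25 counts per coding base (2429 genes) and -0.16 at 0.25 to 0.5 (1530 genes). It was -0.09 at 0.8 to 1.2 (369 genes) and -0.06 at 1.2 to 1.6 (159 genes), and the ratio of the totals was -0.16. Selplg at -0.02, Cd69 at -0.05, S1pr1 at -0.09 and Gpr183 at -0.10 were close to the medians of their ranges. The counts of these 4 genes thus fell less from library 1 to library 3 than the totals did, without counting error taken into account. With plain totals as library sizes none of the 4 passed the chi-square test over the 3 libraries. The adjusted p was 0.0572 for Selplg, 0.426 for Cd69, 0.611 for S1pr1 and 0.186 for Gpr183. When library sizes left out every gene above 0.5 counts per coding base, Selplg passed (adjusted p = 0.0154, same test). On those sizes Cd69, S1pr1 and Gpr183 did not pass (adjusted p = 0.263, 0.36 and 0.105, same test). A departure from depth was thus not shown for Cd69, S1pr1 or Gpr183 alone. For Selplg the result depended on the library sizes used. What such a departure would do to their CPM was not tested. S1pr4 at -0.35 and Gpr15 at -0.46 lay below the median of theirs, where 10% of genes were below -0.39. Cd44, lowest in counts per coding base, had -0.11, above the median of -0.19 in its range and above the ratio of the totals. A smaller fall than that of the totals was thus not limited to members with more counts per coding base. For Cd44 too the chi-square test with plain totals was not passed (adjusted p = 0.715).

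**Figure D4:**
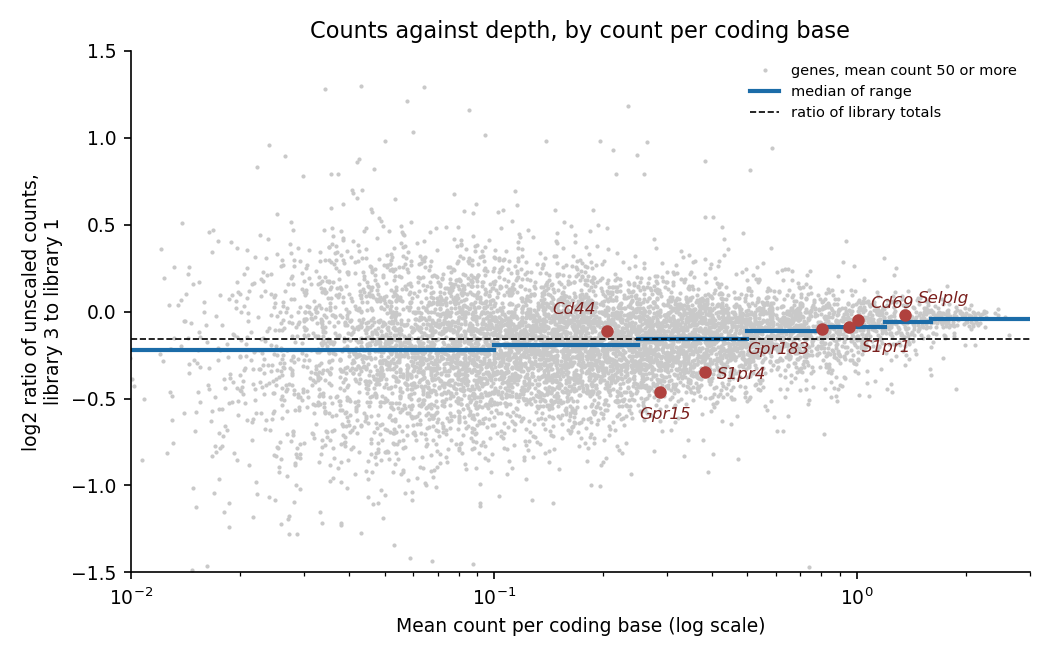
Log2 ratio of unscaled counts of library 3 to library 1 against the mean count per coding base (log axis) for 7787 genes with a mean count of 50 or more (grey; 40 more lie outside the axes), with the median of each range (blue), the ratio of library totals (dashed) and the 7 receptor genes (red). The medians climb from -0.22 at the left to -0.04 at the right, and Gpr15 and S1pr4 lie below theirs.

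Sequence shared with other genes was small for 6 of the 7 receptors. Of the 50-base words of the annotated transcripts, none of S1pr1, Cd44 or Gpr183 occurred in a transcript of another gene. The share was 0.122% for Cd69, 1.24% for S1pr4 and 1.51% for Selplg. It was 9.75% for Gpr15, all shared with Cpox, a haem synthesis gene on the opposite strand whose exons overlap those of Gpr15 by 204 bases. Cpox itself had 20, 29 and 19 counts in libraries 1, 2 and 3, against 369, 296 and 268 for Gpr15. Gpr183 lies whole within Ubac2, a gene on the opposite strand with no shared exon bases. Ubac2 had 500, 471 and 416 counts in libraries 1, 2 and 3, against 847, 946 and 791 for Gpr183. The strand setting of the counting is not given, so reads of an overlapping antisense pair cannot be told apart.

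Genes that make, carry or sense the ligands were described from lists, 56 matched genes in 9 lists. Of these, 41 reached 1 CPM in every library, beside 48.4% of all genes counted. Between libraries 10 of the 40 that could be tested differed (chi-square, edgeR TMM sizes), near the background of 27.6% of all genes tested. The highest value of these 10 was in library 1 for 3, in library 2 for 5 and in library 3 for 2 genes. Of all genes tested, 11.1%, 8.71% and 7.75% differed with the highest value in libraries 1, 2 and 3.

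Genes that regulate S1P receptors were present, while the exporter gene Spns2 was not detected. All 8 genes of the receptor regulation list were detected, led by the endocytic dynamin gene Dnm2 at 464 ± 25.7 CPM and the G protein gene Gnai2, through which S1PR1 signals, at 331 ± 36 CPM. Grk2, a kinase that desensitises S1PR1, stood at 250.3 ± 27.7 CPM and the arrestin gene Arrb2 at 177 ± 9.51 CPM. The transcription factors Klf2 and Foxo1, chosen with their values in view for their known role in S1pr1 expression, were at 29.3 ± 6.15 and 138 ± 3.74 CPM (SD, n = 3 throughout). Of the 9 genes of S1P metabolism 5 were detected. The kinase gene Sphk2, at 83.2 ± 16.4 CPM, and the lyase gene Sgpl1, at 68.3 ± 5.52 CPM, were above the phosphatase genes Sgpp1 (13.9 ± 3.5 CPM) and Plpp1 (12.2 ± 2.12 CPM). Sphk1 had 0, 1 and 0 counts, Plpp3 0, 2 and 1, and Spns2, the S1P exporter of endothelium, none. Sphk2, Grk2 and Gnai2 differed between libraries (adjusted p = 0.00127, 0.00331 and 0.000297, chi-square with edgeR TMM sizes), by ratios of 1.43, 1.22 and 1.21.

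Enzymes that decorate PSGL-1 were mostly detected at low levels. All but Fut4, which had no count, of the 12 genes were at 1 CPM or more throughout, and the median level was 14.5 CPM. The highest were Tpst2, which sulphates tyrosines, at 112 ± 16 CPM and Slc35c1, the GDP-fucose transporter, at 97.6 ± 3.29 CPM. C1galt1c1, the chaperone of core 1 synthase, had 47.3 ± 7.24 CPM and the galactosyltransferase gene B4galt1 26.9 ± 2.7 CPM. Fut7, the fucosyltransferase that completes selectin ligands on T cells and a gene singled out with its values in view, had 20.3, 19.2 and 10.8 CPM in libraries 1, 2 and 3. It was lowest in library 3, 1.88-fold below library 1 (adjusted p = 0.0381, chi-square with edgeR TMM sizes), and Tpst2 also differed (1.3-fold, adjusted p = 0.0147, same test). The vascular selectin genes Selp and Sele stood at 20.6 ± 1.87 and 3.96 ± 0.611 CPM (SD, n = 3).

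Genes linking CD44 to the cytoskeleton were among the highest of the lists, while of the hyaluronan synthase genes Has3 was detected at a low level and Has1 and Has2 had no count. The ERM genes, whose proteins tie CD44 and PSGL-1 to actin, stood at 993 ± 54.8 CPM (Msn), 406 ± 36 CPM (Ezr) and 185 ± 10.8 CPM (Rdx). Hyal2, a hyaluronidase gene, had 33 ± 4.1 CPM (SD, n = 3). Msn, Ezr and the hyaluronan receptor gene Hmmr, 3 of the 6 genes tested in this list, differed between libraries, beside 27.6% of all genes tested. Their adjusted p was 5.55e-05, 0.00455 and 0.00454 (chi-square with edgeR TMM sizes), with ratios of 1.14, 1.16 and 2.06. Has3, chosen with its values in view, had 17, 17 and 15 counts in libraries 1, 2 and 3, a mean of 5.26 ± 0.0396 CPM (SD, n = 3). Has1, Has2, Lyve1 and Layn had no count in any library. Msn has 1.78 counts per coding base, in the range where counts hardly followed depth.

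The ligand side of the chemoattractant receptors was close to the floor. Of the 4 oxysterol enzymes only Hsd3b7, which degrades the GPR183 ligand, reached 1 CPM in every library, at 12.2 ± 0.665 CPM. Cyp27a1, another enzyme of the list, had 1, 7 and 3 counts, and without library 1 it too reached 1 CPM in each library, which made 2 of the 4. Ch25h, which starts the synthesis of the ligand, had no count and Cyp7b1 had 0, 0 and 2 counts. The gene 2610528A11Rik, which encodes the ligand of GPR15, had no count. A count of 0 allows up to 3 counts per library.

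Of the factors that induce Gpr15, Ahr, the aryl hydrocarbon receptor, had 21.2, 12.7 and 10.8 CPM in libraries 1, 2 and 3, and Smad3 averaged 10.5 ± 1.11 CPM (SD, n = 3). Ahr was highest in library 1, as Gpr15 was (1.97-fold above its lowest library, adjusted p = 0.00829, chi-square with edgeR TMM sizes). Itgae, the integrin of cells lodged in epithelium, was also highest there, at 535, 412 and 443 CPM in libraries 1, 2 and 3 (1.33-fold, adjusted p = 4.08e-13, same test). These were the 2 genes of the 6 in the tissue residence list that differed, both with library 1 highest. Of all genes tested 27.6% differed, and 11.1% differed with library 1 highest. The share in the list is near the first of these and above the second, but it rests on 2 genes and no conclusion was drawn from it. The retention regulator Rgs1 at 360.3 ± 13.6 CPM, Prdm1 at 96.8 ± 4.06 CPM and Cxcr6 at 75.1 ± 8.82 CPM did not pass. In the negative binomial model 0 of these 10 pathway genes passed after adjustment, and 2 of them, Ahr and the hyaluronan receptor gene Hmmr (singled out with its values in view), had an unadjusted p under 0.05 (0.0216 and 0.0262, edgeR). Over all genes tested 0.904% passed after adjustment and 6.70% unadjusted, and the 10 had been picked by the chi-square test on the same counts.

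**Figure D5:**
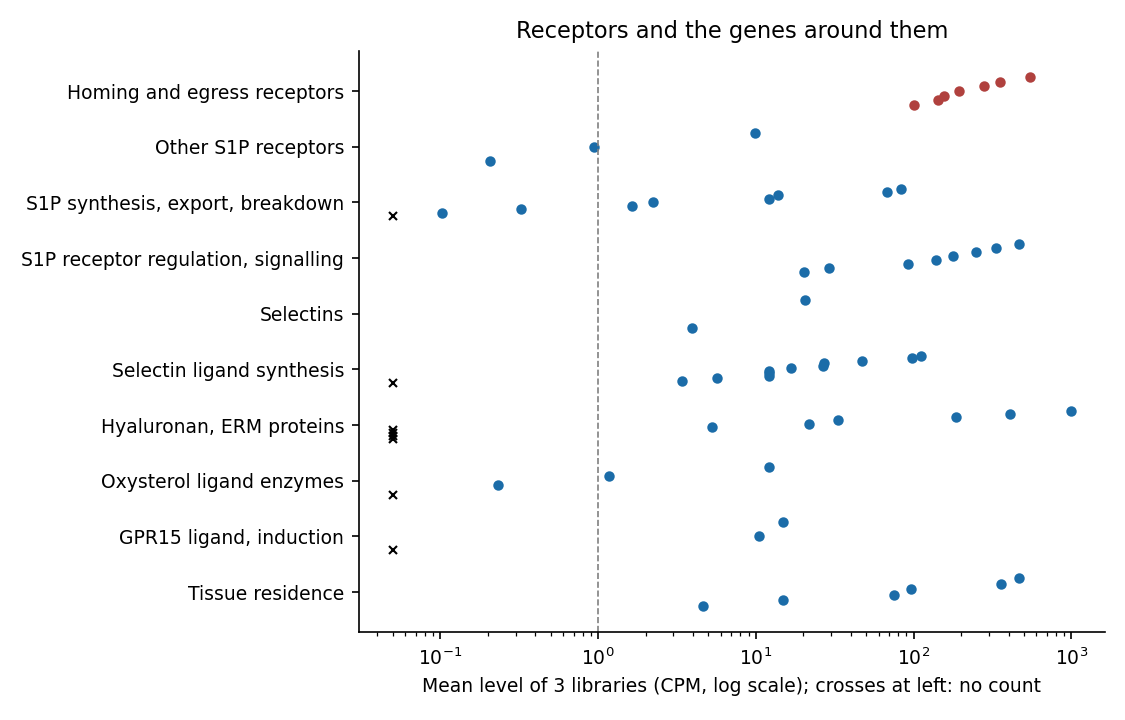
Mean level of 3 libraries in CPM (log axis) of each gene in the receptor list (red) and in the 9 lists of ligands, enzymes and regulators (blue), with crosses for genes without a count and a dashed line at 1 CPM. The receptors lie between 100.0 and 548 CPM, while the other S1P receptors and the oxysterol enzymes lie at or below 12.2 CPM.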

How the data were processed

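Gene counts of 3 polyA plus libraries of regulatory T cells were used, numbered by the technical replicate number in the labels. The deposited files hold whole-number counts for 22457 genes, made by the authors from alignments to mm10 with GENCODE M4, per the file descriptions. Not given in the sources used here are aligner, counting program, strand setting and any duplicate removal. Identifiers were matched to GENCODE M21 (22195 matched, and 262 unmatched ones held 0.117% of counts), so positions and lengths are those of M21.

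CPM used library totals, and the CPM of a gene was divided by the longest annotated coding sequence for levels per kb. At 2872350 to 3228215 counts, 3 counts equalled 0.929 to 1.04 CPM. Intervals and floors cover counting error only. Differences between libraries were tested by Pearson's chi-square against Poisson expectation (mean count of at least 10, TMM sizes from edgeR 4.0.16 in R 4.3.3, adjusted p 0.05). On simulated Poisson counts for 10282 genes the test found 30% of the 1.25-fold, 64% of the 1.5-fold, 94% of the 2-fold and 100% of the 4-fold changes. It called 9 of the 10082 genes left alone. The simulated counts had only the Poisson spread that the test assumes, while the real libraries spread more. These shares therefore check the computation and do not give the error rates in the real libraries. Alternatives used DESeq2 1.42.0 size factors, other filters, lengths and thresholds, and fewer libraries. The software was Python 3.11.15 with pandas 2.3.3, scipy 1.17.1, numpy 2.4.6 and, for figures, matplotlib 3.10.9.

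The members, lists and tests were chosen with earlier results of these data known. All members are named, and of each list the 4 highest genes detected and those under the floor in every library. Of the list entries Gpr15lg was not matched. Another gene of these lists is not reported here.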

Additional observations from a re-analysis of the deposited data

How the results depend on the processing

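Member levels moved by less than their SD under TMM or DESeq2 scaling. With a library left out, the mean of the others always lies within that SD of the full mean. Leaving a library out could therefore show no move by this measure. Neighbours in the order of levels had separate ranges in 5 of 6 pairs, in 4 with the longest coding transcript and in 5 to 6 with a library left out. The count of members that differed was 1 with plain library totals and 0 in the negative binomial model, where 93 genes passed (edgeR). With a library left out it was 0 to 1 members and 960 to 2014 genes, from fewer samples. The log2 ratio of Cd69 to S1pr1 became -1.95 per kb of exons, -0.86 without length and -0.0029 with the longest coding transcript. In the same settings Cd44 to Selplg was -2.49, -1.82 and -3.42, and -1.63 with the shortest Cd44 coding sequence. S1pr4 to S1pr1 was -0.96 per kb of exons and -0.96 with that transcript, and Gpr15 to Gpr183 -0.66 and -0.75. Gpr183 to S1pr1 was -0.35 without length and -0.18 with the transcript. All these moves follow from the lengths divided by, and the transcript and shortest Cd44 settings were chosen after seeing the data. Detection of 41 of the 56 pathway genes changed by less than 1.5 times under every threshold and library set tried. By list, the other S1P receptors went to 2 detected without replicate 3, the oxysterol enzymes to 2 without replicate 1 and the selectins to 1 at 5 CPM. At this depth, levels near 1 CPM rest on about 3 counts. No paired analysis was possible because the libraries form a single group.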
